A study of Mus musculus with 64 samples.

Results

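The nuclear genes of oxidative phosphorylation were followed through 16 RNA-seq libraries of mouse striatum, the input nucleus of the basal ganglia. The rule that picks them reads the gene symbol only, though the family was taken up with earlier results of these data known. All symbols beginning with Ndufa, Ndufb, Ndufc, Ndufs or Ndufv and a digit, the 4 Sdh subunit genes, and all symbols beginning with Uqcr, with Cox and a digit from 4 to 8, or with Atp5 were taken, and pseudogene symbols and Ndufaf assembly factors were left out. This gave 84 of the 23420 genes listed in the count files, of which 37 fall to complex I, 4 to complex II, 8 to complex III, 18 to complex IV and 17 to complex V. Ndufab1, Cyc1, Cycs, Atpif1 and Usmg5 work in the same pathway but lie outside these symbols.

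Oxidative phosphorylation is carried out in the inner mitochondrial membrane. Complexes I and II pass electrons from NADH and succinate to ubiquinone, complex III passes them on to cytochrome c, and complex IV (cytochrome c oxidase) hands them to oxygen, while complexes I, III and IV pump the protons that drive ATP synthase, complex V. Most of the subunits are encoded in the nucleus, on chromosomes scattered over the genome, and the rest, apart from complex II, in mitochondrial DNA. Neurons draw most of their ATP from this pathway.

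All 16 mice were naive, that is, given no treatment, and were about 50 days old. In the labels, 8 are Csnk1e knockouts, lacking the gene for casein kinase 1 epsilon, and 8 are wild-type controls. The libraries are called KO1 to KO8 and WT1 to WT8 after the label and number of the mouse, and every label is used here as a label only, because the targeted gene did not follow it. Csnk1e stood at 38.0 to 79.5 CPM in the mice labelled knockout and at 42.1 to 86.2 CPM in those labelled wild type, where CPM is the number of reads per 1000000 reads in genes, with library sizes adjusted by the trimmed mean of M-values (TMM). A gap without any library ran from 44.9 to 72.2 CPM, and 3 libraries labelled knockout and 4 labelled wild type lay below it. The sources used here do not give the allele, the strain, the sex of the mice or the number of lines behind the labels. Punches from the left and right striatum of a mouse were pooled, with a diameter of 2.5 mm in the extraction protocol and 3 mm in the design text.

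Each library held 22088005 to 30238947 reads in genes, summed over 4 lanes on 2 flow cells. Striatal projection neuron markers were abundant in every library, with Penk at 766 to 1311 CPM and Ppp1r1b at 855 to 1403 CPM. KO1 and WT7 stood apart in choroid plexus markers, whose 8 genes summed to 1631 and 2376 CPM there against 13.4 to 143 CPM in the other 14 libraries. KO3 held transcripts of both sexes, and 5 libraries had the Xist level of females. Nothing in the labels ties a mouse number in one group to the same number in the other, and p-values measure the spread between these mice. In whole tissue, fewer cells of a type and less RNA per cell cannot be told apart.

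Of the 84 genes, 81 had enough reads to be tested. Ndufs5, a small complex I subunit, had 0 reads in all 16 libraries, which allows at most 0.0992 to 0.136 CPM by counting error alone, at 3 reads a library. That limit holds only if reads of the gene could be counted. In the GENCODE M21 annotation, 21.7% of the 50-base words in its exons also occur in BC002163, a processed pseudogene with 0 to 17 reads a library. The other words occur in no other gene. Sco2, Pet117, Hba-a1, Hba-a2 and Hbb-b1, from the other lists used here, likewise stood at 0 in all 16 libraries. Whether counting lost the reads of Ndufs5 was not tested, so the 0 does not give its expression. Cox8c had 1 read in all 16 libraries. Cox8b had 2 to 40 reads a library.

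As a family these genes were highly expressed. Per kilobase of exon union, the scale on which genes of unlike length can be compared, the median tested member stood at 90.1 CPM per kilobase, against 6.92 over 15297 tested genes with an annotated length, and 75 of the 81 lay above the latter value. Of the members, 37 exceeded 100 CPM per kilobase, 37 lay between 10 and 100, and 7 lay under 10.

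**Figure D1:**
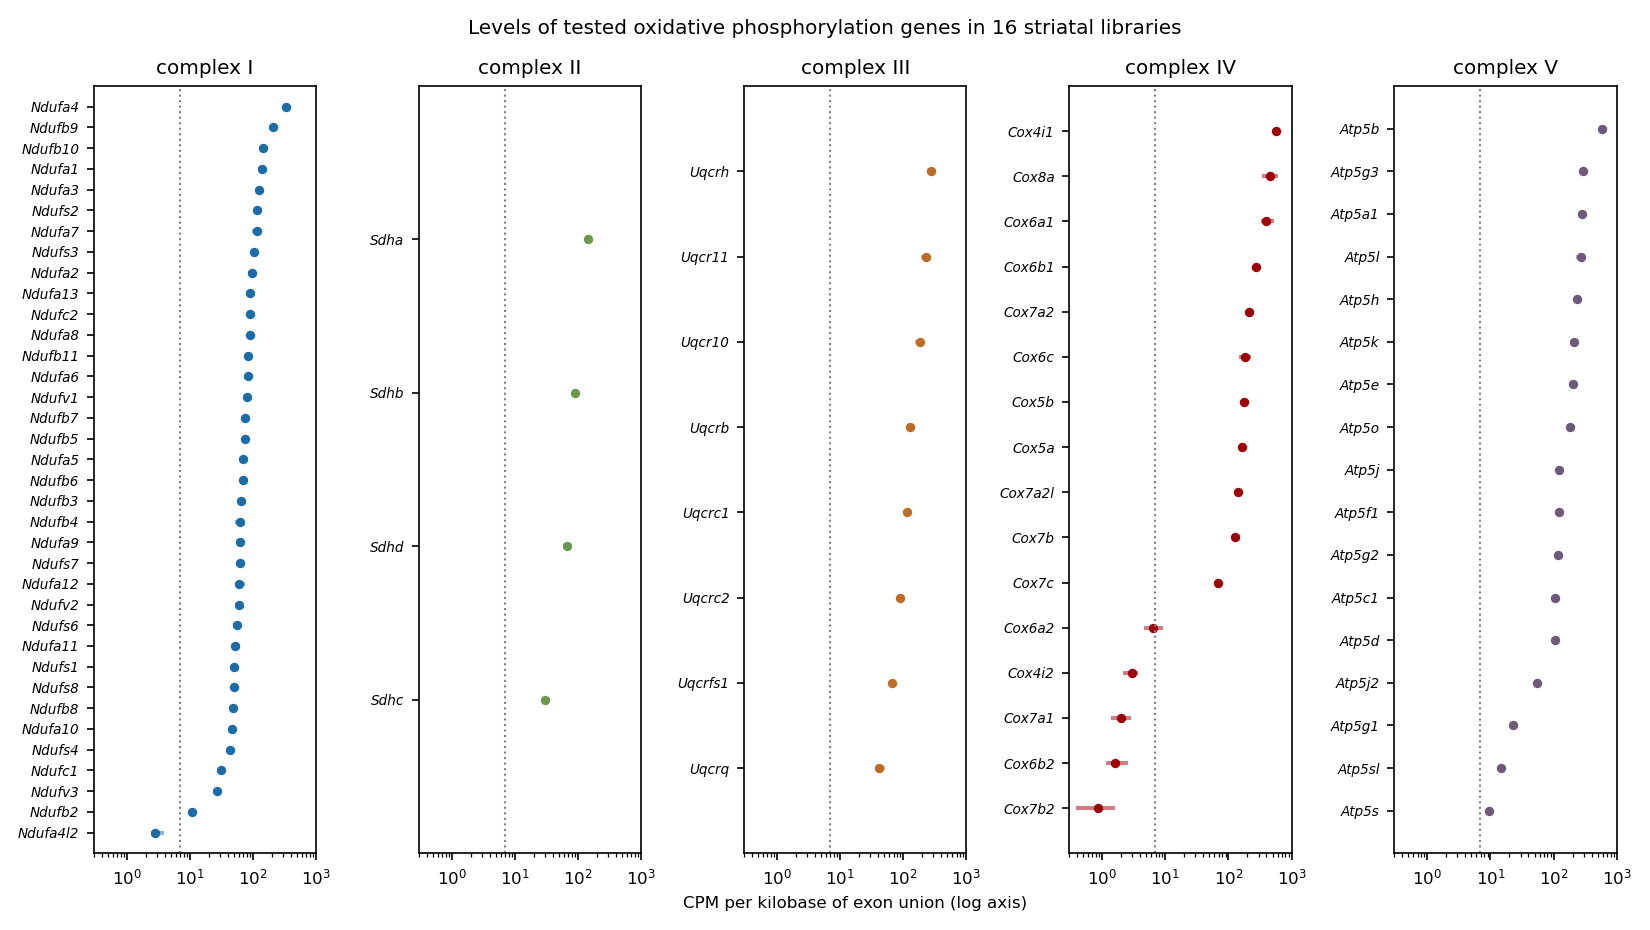
Mean CPM per kilobase of exon union over 16 libraries (points, log axis) with the lowest and highest library (bars), for the 81 tested genes of each complex in order of level; the dotted line is the median of all tested genes, 6.92. The minor isoform genes Cox6a2, Cox4i2, Cox7a1, Cox6b2 and Cox7b2 lie at the foot of complex IV, between 6.44 and 0.851, far below Cox4i1 at 560.

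Complex V held the highest member. Atp5b, the catalytic beta subunit of the ATP synthase head, stood at 583 ± 20.6 CPM per kilobase (SD, n = 16 mice). Atp5a1, its alpha partner, stood at 283 ± 10.8. The proton-carrying ring of the synthase is built from subunit c, a single protein that is encoded by Atp5g1, Atp5g2 and Atp5g3, which stood at 22.4, 116 and 298 CPM per kilobase. The low value of Atp5g1 rests on a long exon union of 4912 bases, and with the median length of its coding transcripts it was 41.0. Atp5s and Atp5sl, at 9.40 and 14.6 CPM per kilobase, were the lowest of the complex V symbols; despite the symbols, neither is counted among the subunits of the synthase.

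In complex IV, Cox4i1 and Cox8a led at 560 ± 30.4 and 449 ± 72.0 CPM per kilobase, and Cox6a1 followed at 394 ± 51.8. The first is the main regulatory subunit that binds ATP, and the other 2 are small membrane subunits, each with a muscle or tissue-restricted counterpart. Cox5a, a matrix-facing subunit, stood at 167 ± 11.8. Cox7b2, a counterpart of Cox7b, was the lowest tested member of all, at 0.851 ± 0.326 CPM per kilobase.

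In complex I, Ndufa4 led at 328 ± 26.2 CPM per kilobase; this small protein was first found with complex I and is now placed in complex IV. Among the subunits that hold the redox centres, Ndufv1, which carries the flavin where NADH is oxidised, stood at 79.9 ± 3.24. Ndufs1, the largest iron-sulphur subunit, stood at 50.6 ± 2.18 by exon union and at 219 by coding transcript length, so its place in the order depended on the length used. Its median annotated coding transcript has only 651 bases against an exon union of 2819, and the value of 219 rests on that short length. Ndufa4l2, a paralog of Ndufa4 known as a hypoxia-induced gene, was the lowest at 2.84 ± 0.348.

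In complex II, which also belongs to the citric acid cycle, Sdha stood at 144 ± 4.10 CPM per kilobase. It encodes the flavoprotein that oxidises succinate. Sdhb, the iron-sulphur subunit, stood at 88.3, and the membrane anchors Sdhd and Sdhc at 66.3 and 29.6. With coding transcript length Sdhc was 115 and second in the complex, and Sdhd was the lowest. In complex III, Uqcrh, the hinge protein at the cytochrome c1 side, led at 279 ± 18.7, the core protein Uqcrc1 stood at 113 ± 5.70, and Uqcrfs1, the Rieske iron-sulphur protein, stood at 67.1 ± 3.26. With coding transcript length, Uqcrc1 led complex III at 352 and Uqcrfs1 was the lowest at 67.1. The median annotated coding transcript of Uqcrc1 has only 533 bases against an exon union of 1653, so its lead rests on that short length.

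The members share features of gene structure that the symbol rule did not use. Their exon unions were short, with a median of 971 bases against 3329 over all tested genes with an annotation, and their GC content was close to that of the rest, with medians of 51.7% and 50.8%. Of the 84, 21 (25.0%) had the start of a coding gene on the opposite strand within 1000 bases, against 9.44% of 14518 tested coding genes. Many share sequence with other genes. In 46 members at least 1 exonic 50-base word also occurred in another gene, and in 17 this held for over 20% of the words, as in Atp5l (84.8%), Atp5o (47.6%), Uqcrb (43.4%) and Ndufs3 (39.7%). In 13 of the 17 at least 1 pseudogene shared words, and in 6, Atp5o, Cox5a, Ndufa13, Ndufb6, Ndufb9 and Uqcrc2, the gene that shared most overlaps the member itself. The levels of these 17 are uncertain. Reads with more than 1 alignment were kept out of the gene counts, so reads of stretches shared with another place can be missing. Reads of stretches where genes overlap could come from more than 1 gene.

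Promoters were read from the RefSeq table of GRCm38.p6, which gives 250 bases before and 50 bases after a start and held 75 promoters of 69 members. Nuclear respiratory factor 1 (NRF1) is a transcription factor known for binding promoters of respiratory chain genes. Its palindromic core, searched on either strand and shown in capitals in the stretches printed below, was found in 24.0% of the member promoters, against 8.58% of 15357 promoters of the other tested genes and 4.60% of all 32851 promoters. By complex, 7 of 32 genes with a promoter had it in complex I, 2 of 3 in complex II, 1 of 5 in complex III, 1 of 13 in complex IV and 6 of 16 in complex V. The ETS core CCGGAAG, to which NRF2/GABP binds, was found in 21.3% of the member promoters, against 14.9% and 8.86%. AAGATGG, the core for YY1, was found in 17.3%, against 6.49% and 6.34%. GGGCGG, the SP1 box, was found in 38.7%, against 59.4% and 35.7%. CCAAT was found in 42.7%, against 37.2% and 37.4%, and TATAAA in 10.7%, against 7.57% and 13.6%. A match describes letters, not a bound site, and no test was made.

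The stretches below show what these promoters look like, 5′ to 3′ on the strand of the gene, up to the outermost annotated start, with matches to the NRF1, ETS and YY1 cores in capitals. Sdha (chr13:74350281-74350490, minus strand) and Cox6a1 (chr5:115348982-115349208, minus strand) each held 2 NRF1 cores and Atp5h (chr11:115419963-115420169, minus strand), a stalk subunit of the synthase, held 1. Cox8a (chr19:7217617-7217866, minus strand) and its muscle counterpart Cox8b (chr7:140900447-140900696, minus strand) are shown for contrast, since they are isoforms of 1 subunit with unlike levels, and neither stretch held any of the 3 cores. The ETS core counted for Cox8a lies across the start and so runs past the end of its stretch. An ETS core was also counted for Cox6a1 and for Atp5h, but not wholly within the stretches of 227 and 207 bases printed here.
Sdha: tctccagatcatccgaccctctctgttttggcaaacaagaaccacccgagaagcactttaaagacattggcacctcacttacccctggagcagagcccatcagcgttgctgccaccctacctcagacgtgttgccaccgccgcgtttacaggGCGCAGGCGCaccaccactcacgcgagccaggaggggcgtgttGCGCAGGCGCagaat
Cox6a1: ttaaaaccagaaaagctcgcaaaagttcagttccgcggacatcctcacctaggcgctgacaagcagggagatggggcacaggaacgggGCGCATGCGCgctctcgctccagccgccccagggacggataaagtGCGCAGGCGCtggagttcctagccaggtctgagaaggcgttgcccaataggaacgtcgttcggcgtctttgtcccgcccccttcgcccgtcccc
Atp5h: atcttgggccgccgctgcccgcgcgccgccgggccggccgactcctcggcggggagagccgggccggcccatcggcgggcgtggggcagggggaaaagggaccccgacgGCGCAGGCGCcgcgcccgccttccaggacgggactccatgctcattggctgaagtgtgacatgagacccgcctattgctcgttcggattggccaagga
Cox8a: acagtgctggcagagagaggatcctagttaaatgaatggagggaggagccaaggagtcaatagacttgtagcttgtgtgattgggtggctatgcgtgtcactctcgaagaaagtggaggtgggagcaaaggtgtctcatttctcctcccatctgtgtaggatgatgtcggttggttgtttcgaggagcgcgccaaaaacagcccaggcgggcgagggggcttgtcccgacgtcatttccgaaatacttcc
Cox8b: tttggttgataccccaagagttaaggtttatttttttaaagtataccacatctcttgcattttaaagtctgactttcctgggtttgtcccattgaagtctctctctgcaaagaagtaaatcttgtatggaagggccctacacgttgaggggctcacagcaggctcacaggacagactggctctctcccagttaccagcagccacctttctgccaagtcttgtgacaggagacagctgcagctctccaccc

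The 16 libraries differed in the family as a whole. The summed CPM of all members ran from 9851 in WT1 to 11258 in WT8, a ratio of 1.14, or 0.985% to 1.13% of the scaled reads of a library. Complex I summed to 2780 CPM in WT1 and 3227 in WT6, complex II to 668 in KO6 and 726 in KO5, and complex III to 848 in WT1 and 1016 in WT6. Complex IV moved most, from 1859 in KO2 to 2342 in WT8, a ratio of 1.26, and complex V ran from 3589 in WT1 to 4004 in WT8. The highest and lowest libraries of the complexes were thus largely the same few, and apart from complexes II and IV both ends fell among the mice labelled wild type.

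**Figure D2:**
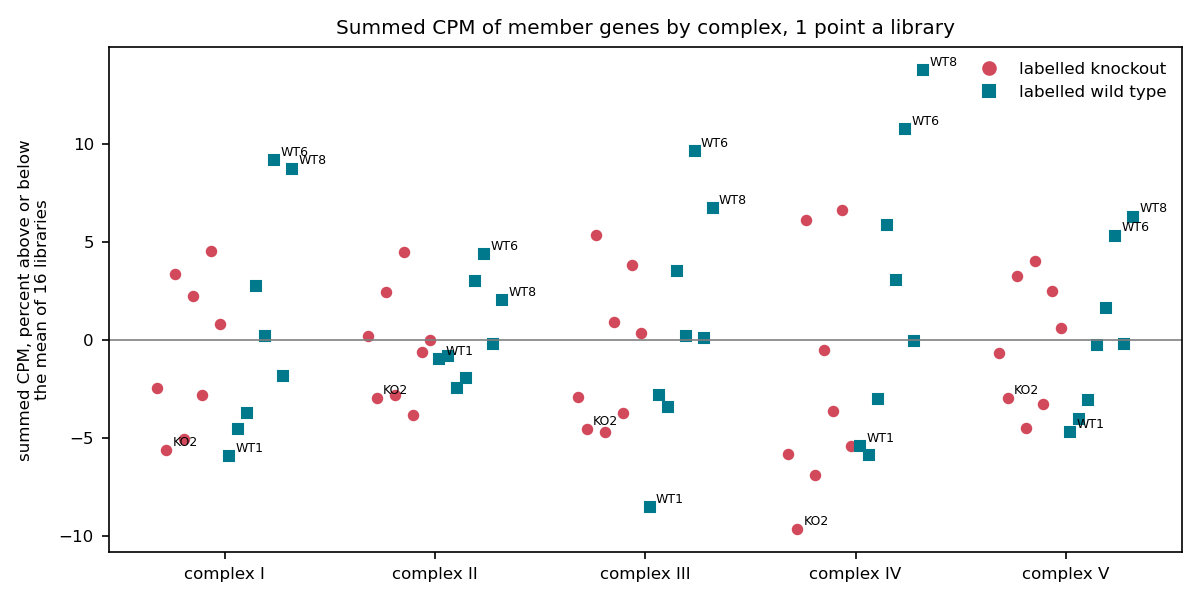
Summed CPM of the members of each complex, as percent above or below the mean of the 16 libraries; circles are labelled knockout and squares labelled wild type, in the same order of libraries within each complex. WT6 and WT8 lie above the mean in all 5 complexes, by up to 10.8% and 13.8% in complex IV, and KO2 and WT1 lie below it in all 5.

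Single members moved with these sums. Counted as members above their own 16-library mean, KO2 and KO4 had 7 of 81, WT2 had 9, WT8 had 68, KO3 had 69 and WT6 had 75. The median member deviated from its own mean by -0.09 log2 in WT1 and by 0.13 log2 in WT6, while the median over all tested genes stayed between -0.006 and 0.011. Of the 81, 30 reached their highest level in WT6 and another 30 in WT8, and 25 had their lowest in WT1. In WT6, all 8 members of complex III and all 4 of complex II lay above their means, and Cox6c had the highest deviation in complex IV, 0.32 log2.

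**Figure D3:**
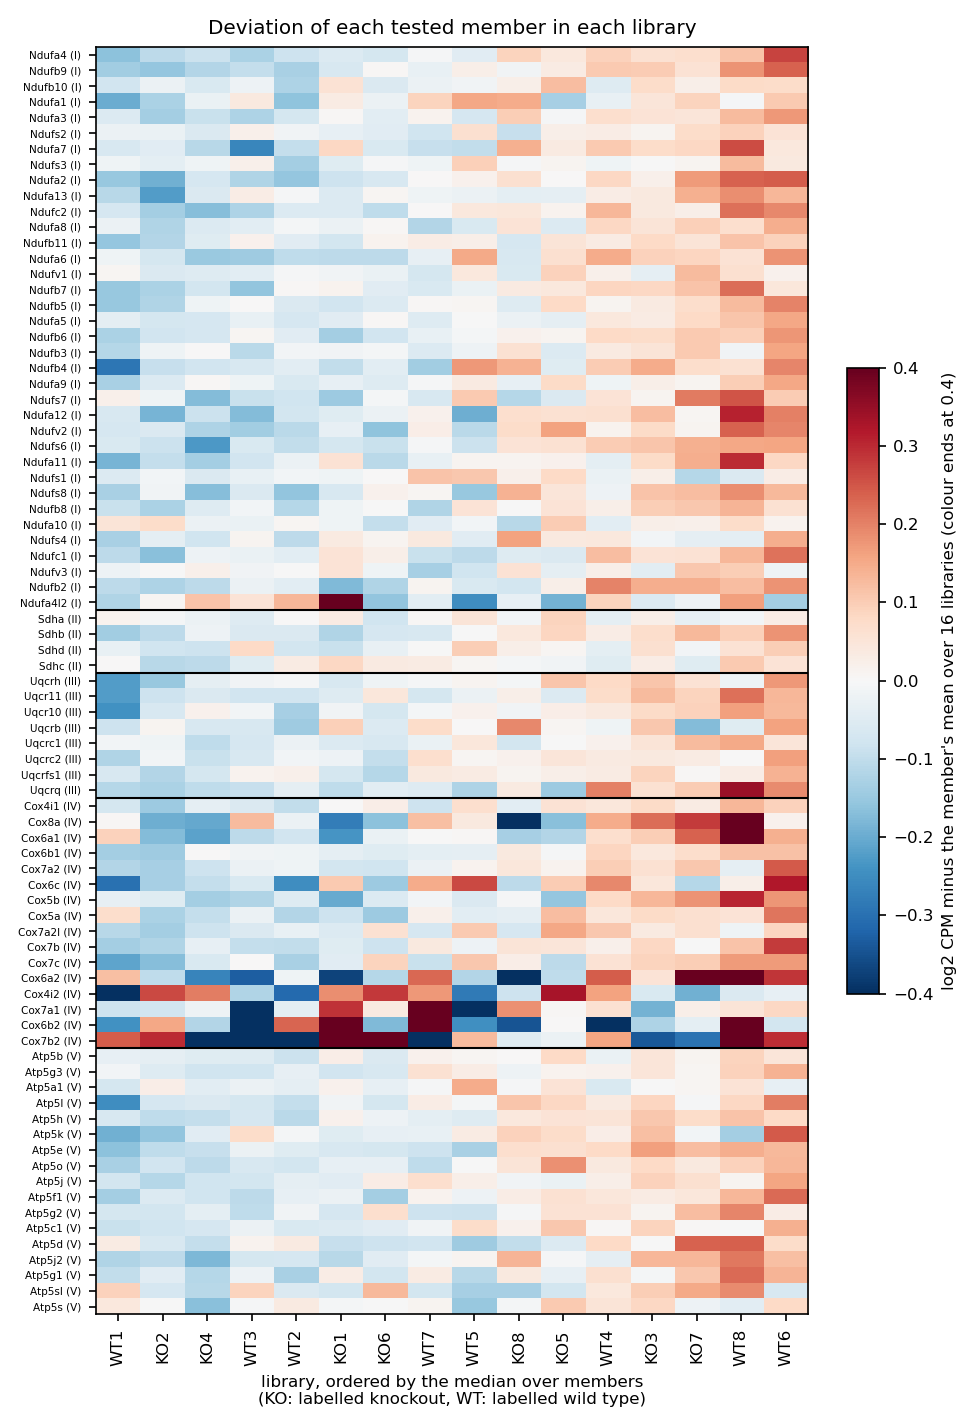
Deviation of each of 81 tested members (rows, by complex) from its own mean over 16 libraries in log2 CPM (colour, which ends at 0.4), with libraries in order of the median over members. The columns at the right, WT8 and WT6, are high in most rows of all complexes, and the minor isoform genes of complex IV do not follow that order.

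Other measures of the libraries varied too. Cytosolic ribosomal protein genes, 75 in number and also short and abundant, had median deviations from -0.13 log2 in WT1 to 0.09 log2 in KO3. Members shorter than the median of 971 bases varied somewhat more as a group (SD of the library medians 0.079 log2) than longer ones (0.063 log2). Cortical excitatory neuron markers, 6 genes, summed to 1016 CPM in WT6 and 1062 CPM in WT4 against 487 CPM in KO6, and striatal projection neuron markers to 3543 CPM in WT6 against 5356 CPM in KO2. WT5, with the most striatal markers at 5757 CPM, had a member sum 1.47% above the mean. WT2 had 961 CPM of the cortical markers and 9 of 81 members above their mean. WT8, with the highest member sum, had 740 CPM of the cortical and 4573 CPM of the striatal markers. WT1, with the lowest member sum, had 786 and 4698 CPM. The part of these measures in the movement of the members was not tested.

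Between libraries, single members varied about as much as other genes of like level. The median SD of log2 CPM over 16 libraries was 0.099 for the members, 0.132 for all tested genes and 0.094 for 4583 other genes between 39.2 and 203 CPM, where 65 members lie. The steadiest members were core subunits: Sdha (0.041), Atp5b (0.051) and Atp5a1 (0.054). Sdha ran from 396 through 416 to 444 CPM (lowest, median, highest) in the mice labelled knockout and from 404 through 419 to 433 CPM in those labelled wild type, with KO6 lowest and KO5 highest. Atp5b ran from 1073 through 1122 to 1181 CPM and from 1053 through 1110 to 1187 CPM. By complex the median SD was 0.063 in complex II and 0.159 in complex IV. The members with the largest spread were minor isoform genes of complex IV with few reads, Cox7b2 (0.465), Cox6b2 (0.337) and Cox6a2 (0.280), but Cox8a, with 4861 to 8431 reads a library, reached 0.228.

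No member was called different between the labelled genotypes. By the quasi-likelihood test of edgeR with Benjamini-Hochberg adjustment over all 15446 tested genes, 0 of 81 passed an adjusted p of 0.05, and the background was 0.0%, with 0 genes called at all. The smallest adjusted p among members was 0.997. At an unadjusted p under 0.05, 1 of the 81 (1.23%) passed, on the lower side, against 3.41% of all tested genes, 1.91% higher and 1.5% lower, and DESeq2 likewise called 0 members. That count of 1 ran from 0 to 6 when single libraries were left out: it was 0 without KO1, KO2, KO4, KO5 or WT8, 2 without WT1, WT4 or WT7, 4 without KO3 or WT3 and 6 without KO7. In no member were the groups free of overlap, against 1 of 15446 genes (0.00647%).

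The sizes were small. Of the 81 log2 fold changes (labelled knockout minus labelled wild type), 76 lay within 0.1 of 0, and 73 members had a 95% confidence interval wholly within 0.25 of 0. The median was -0.02, against 0.00 for all tested genes, and 57 members (70.4%) were below 0, against 49.7% of all tested genes. The members are not independent of each other, as the library sums show, so this share is a description, and its direction depended on the fit. With the library number as a covariate the median turned to 0.02 and 26 members (32.1%) were below 0. That number, given in the sample titles, ran from 1 to 13 in the mice labelled knockout and from 3 to 17 in those labelled wild type. WT6 and WT8, with the highest member sums, were numbers 15 and 17. Label and number are thus partly confounded, and their parts in the median cannot be told apart. With limma-voom and quality weights the median was 0.00007 and 40 members (49.4%) were below 0. When single libraries were left out the median ran from -0.04 to -0.0007, the latter without WT6. By complex the medians were -0.02 in complexes I and II, -0.01 in complex III, -0.03 in complex IV and -0.005 in complex V. With the library number as a covariate those of complexes I, III, IV and V turned to 0.03, 0.03, 0.02 and 0.03, and when single libraries were left out those of complexes III and V ran from -0.03 to 0.01 and from -0.02 to 0.008. Summed over all members, the mice labelled knockout had 10320 ± 394 CPM (SD, n = 8) and those labelled wild type 10482 ± 538 CPM.

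**Figure D4:**
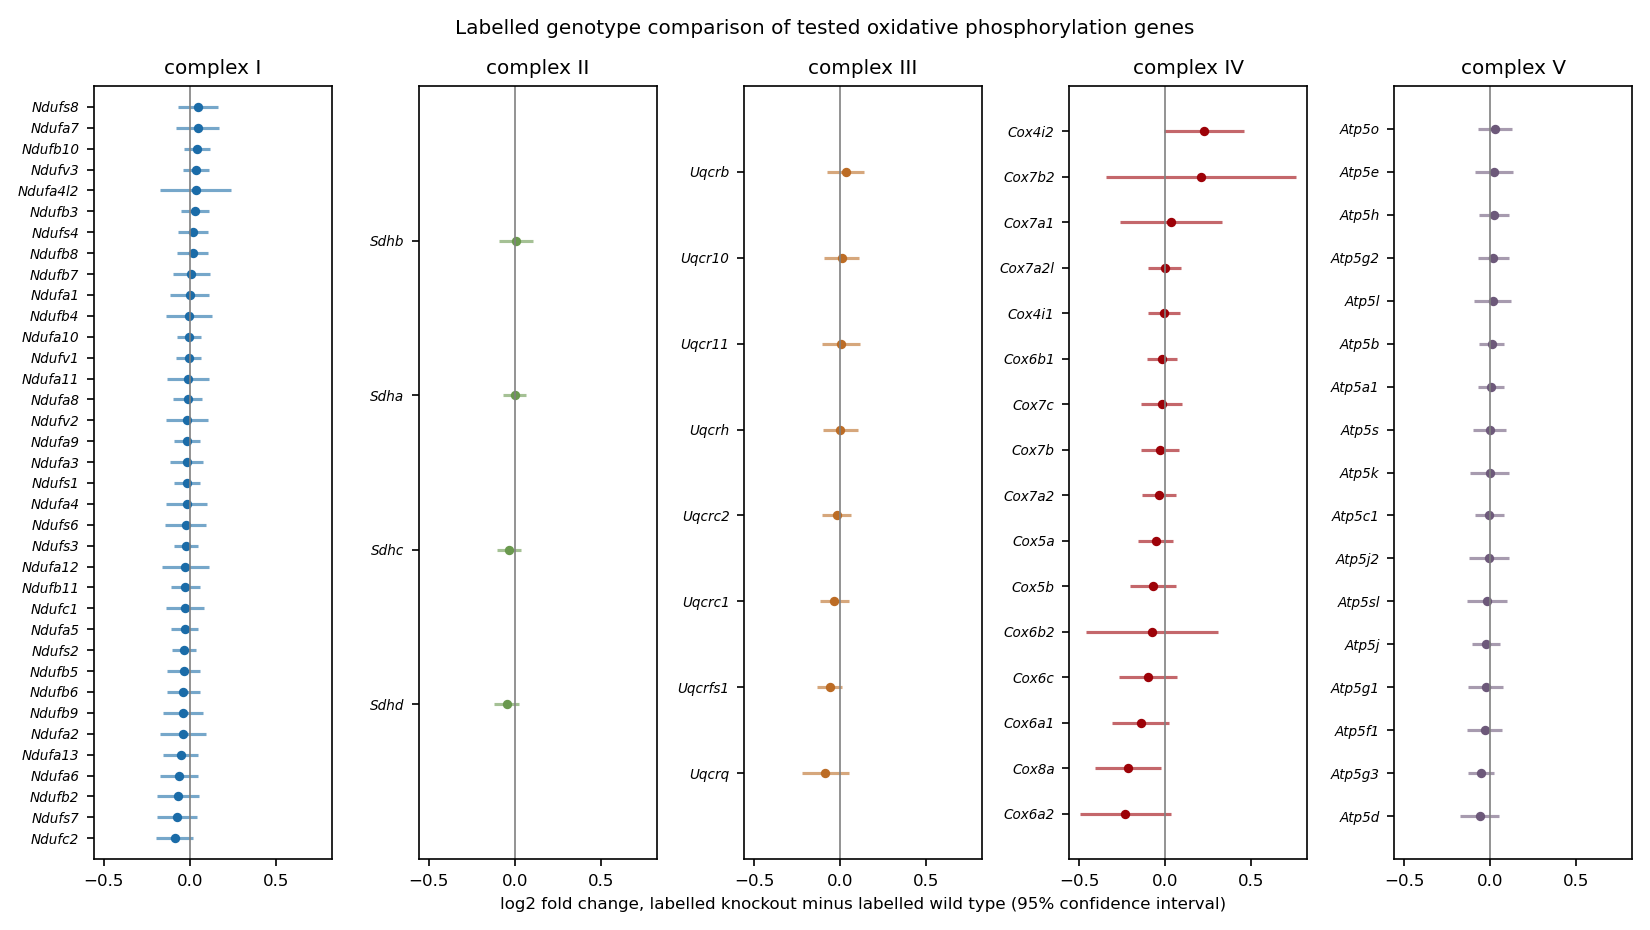
Log2 fold change of each tested member between labelled knockout and labelled wild type (points) with its 95% confidence interval (bars), by complex. All intervals except that of Cox8a, at -0.41 to -0.02, include 0.

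In complex I, 9 of 36 tested members were above 0 and 27 below, and none passed the test. Of the redox subunits, Ndufv1 had a log2 fold change of -0.01 and Ndufs1 of -0.02. The iron-sulphur subunits Ndufs7 and Ndufs8 lay further out on either side, at -0.07 and 0.05. Ndufc2, an accessory membrane subunit, had the smallest p of the complex. It ran from 60.4 through 66.9 to 70.1 CPM in the mice labelled knockout and from 62.4 through 69.0 to 79.2 CPM in those labelled wild type, with WT8 highest and the groups overlapping. Its log2 fold change was -0.09 ± 0.05 (SE, unadjusted p = 0.104 in edgeR). Ndufs7, an iron-sulphur subunit next to the ubiquinone site, stood at 59.7 ± 5.17 and 62.9 ± 5.17 CPM (SD, n = 8 each), and Ndufb2, an accessory subunit, at 46.2 ± 4.09 and 48.5 ± 3.94 CPM.

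In complex II, Sdha had a log2 fold change of -0.002 with a 95% confidence interval of -0.069 to 0.065. Sdhd stood at 80.2 ± 3.12 CPM in the mice labelled knockout and 83.0 ± 3.91 CPM in those labelled wild type, the smallest p of the complex (unadjusted p = 0.182 in edgeR). In complex III, 4 members were above 0 and 4 below. Uqcrfs1 ran from 84.3 through 89.4 to 97.2 CPM and from 87.5 through 93.3 to 100.7 CPM, a log2 fold change of -0.06 ± 0.04 (SE, unadjusted p = 0.104 in edgeR). Uqcrq, a small subunit of complex III, stood at 72.3 ± 4.76 and 76.8 ± 9.81 CPM, where WT8 alone reached 94.1.

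In complex V, 7 members were above 0 and 10 below. The catalytic pair had log2 fold changes of 0.004 for Atp5a1 and 0.007 for Atp5b and 95% confidence intervals of -0.07 to 0.08 and -0.06 to 0.08. Of the ring genes, Atp5g3 stood at 212 ± 7.04 CPM in the mice labelled knockout and 220 ± 10.8 CPM in those labelled wild type (log2 fold change -0.05, unadjusted p = 0.147 in edgeR). Atp5d, the delta subunit of the central stalk, stood at 146 ± 12.2 and 152 ± 12.1 CPM, and Atp5f1, a subunit of the outer stalk, at 192 ± 9.13 and 196 ± 16.6 CPM.

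Complex IV held all 5 members beyond 0.1 log2: Cox8a, Cox6a1, Cox6a2, Cox4i2 and Cox7b2. Of these, Cox6a2, Cox4i2 and Cox7b2 are minor isoform genes with few reads, 75 to 161, 40 to 76 and 6 to 22 a library. Cox7b2 had a log2 fold change of 0.21 ± 0.26 (SE). The sum of complex IV was 2009 ± 124 CPM in the mice labelled knockout and 2108 ± 151 CPM in those labelled wild type. Of its 16 tested members, 13 were below 0 and 3 above, and only Cox8a passed an unadjusted p of 0.05.

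Cox8a encodes the form of subunit VIII, a small membrane subunit of cytochrome c oxidase, that most tissues use, from 2 exons on the minus strand of chromosome 19 (7215153 to 7217616, GRCm38, GENCODE M21). In the mice labelled knockout its CPM were 201, 213, 285, 212, 217, 218, 296 and 184 in KO1 to KO8, and in those labelled wild type 245, 240, 267, 270, 251, 247, 265 and 337 in WT1 to WT8. Of the libraries labelled knockout, 6 lay below every library labelled wild type, while KO3 and KO7 lay above all of them but WT8. The log2 fold change was -0.22 with a 95% confidence interval of -0.41 to -0.02 (unadjusted p = 0.030, adjusted p = 0.997 in edgeR), and it lay between -0.28 and -0.16 when any single library was left out. The unadjusted p then rose above 0.05 without KO1, KO2, KO4, KO5, KO8 or WT8, to 0.080 at most, and was 0.073 without both KO1 and WT7. With the library number as a covariate the log2 fold change was -0.16 with an unadjusted p of 0.133 in edgeR, and the only member with an unadjusted p under 0.05 in that fit was Ndufs8.

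Cox8a also moved with the base composition of the libraries. A GC index of each library was taken as the median deviation of 1444 coding genes with at least 58.3% GC minus that of 1444 with at most 43.1% GC, members excluded, and it ran from -0.22 in KO8 to 0.28 in WT8, with KO7 next at 0.19. In a fit with the label kept, edgeR called 6 of 81 members (7.41%) on this index at an adjusted p under 0.05, against a background of 6.12% of 12558 genes. It called 4 members higher with the index, against a background of 2.37%, and 2 lower, against 3.75%. The 12558 leave out the genes that set the index. The adjustment, however, ran over all tested genes, and those that set the index move with it by construction. Their presence can lower every adjusted p, so both the calls and the background depend on it. Over the range of the index Cox8a rose by 0.55 ± 0.14 log2 (SE, adjusted p = 0.021), Cox6a1 by 0.41 ± 0.12 (adjusted p = 0.042), Atp5sl by 0.36 and Atp5d by 0.33, and Uqcrb fell by 0.28 and Ndufs1 fell by 0.19. The 4 that rose had 52.7% to 60.8% GC, and the pair that fell 41.3% and 45.9%. With the index in the fit, the labelled genotype difference of Cox8a was -0.20 (unadjusted p = 0.0088), no member was called, and 1 member had an unadjusted p under 0.05. The index was added after the values were seen, and what sets it was not tested.

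**Figure D5:**
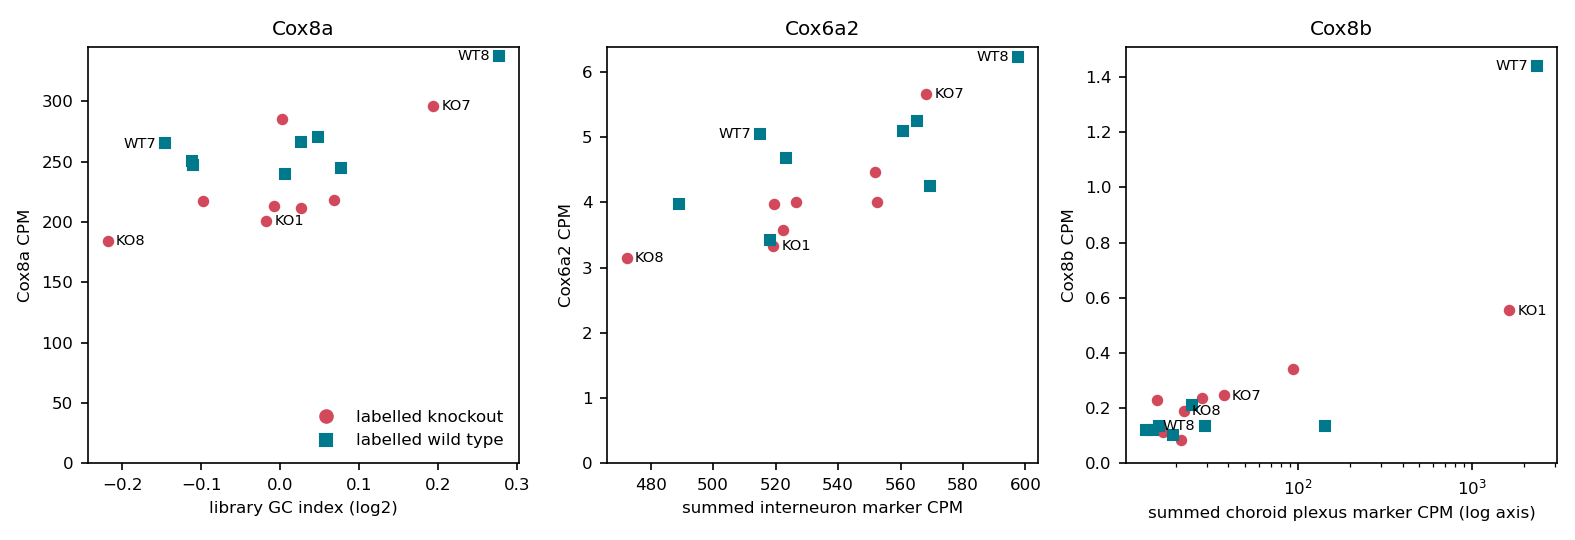
Cox8a CPM against the library GC index, Cox6a2 CPM against the summed CPM of 8 interneuron markers, and Cox8b CPM against the summed CPM of 8 choroid plexus markers (log axis), 1 point a library (circles labelled knockout, squares labelled wild type). WT8 and KO7 are high in Cox8a and Cox6a2, and WT7 and KO1 are high in Cox8b.

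Several complex IV subunits have a second gene that is known for use in muscle, lung or germ cells, and these minor isoforms made up a small share of each pair in striatum. In reads of a pair, Cox4i2, the oxygen-sensitive lung form, made up 0.416% to 0.718%, Cox6a2, the heart and skeletal muscle form, 1.52% to 2.21%, Cox7a1, likewise a muscle form, 0.514% to 1.10%, and Cox8b 0.0398% to 0.540%. The testis-enriched Cox6b2 made up 0.473% to 1.14% and Cox7b2 0.175% to 0.700%. The subunit c genes were in contrast shared out, with Atp5g1 at 31.5% to 35.8% of its pair with Atp5g3 and Atp5g2 at 26.2% to 30.0%, although shared 50-base words in Atp5g2 (38.4%) make its share uncertain. These are shares of reads, not corrected for length.

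The ratio of the paired genes within a library was compared by a two-sided exact permutation test over the 12870 ways to label 8 of 16 mice, and none of 8 pairs passed. Cox4i2 over Cox4i1 was higher by 0.24 log2 in the mice labelled knockout (mean log2 ratio -7.39 ± 0.22 against -7.63 ± 0.22, SD, n = 8 each; exact permutation p = 0.0527, 0.293 adjusted over 8 pairs). Cox4i2 itself ran from 2.04 through 2.67 to 2.93 CPM and from 1.70 through 2.19 to 2.63 CPM, with the groups overlapping, and its log2 fold change was 0.23 ± 0.11 (SE, unadjusted p = 0.056 in edgeR). Cox4i2 had only 40 to 76 reads a library over both flow cells. From the reads of flow cell 1 alone its log2 fold change was 0.09 (unadjusted p = 0.564 in edgeR). From those of flow cell 2 alone it was 0.37 (unadjusted p = 0.0131 in edgeR). Beside it, all 8 mural cell markers had log2 fold changes above 0, with a median of 0.13, and Myh11, a smooth muscle myosin, stood at 11.3 ± 2.11 and 8.81 ± 2.04 CPM (unadjusted p = 0.016, adjusted p = 0.997 in edgeR). The 8 markers summed to 210 to 270 CPM in the mice labelled knockout and to 188 to 240 CPM in those labelled wild type. Of the 8, 2 had an unadjusted p under 0.05 in edgeR, both higher, against 1.91% of all tested genes on the higher side. Oligodendrocyte markers also lay to one side, with 10 of 10 below 0 and a median of -0.17 log2. Of these, 2 had an unadjusted p under 0.05 in edgeR, against 1.5% of all tested genes on the lower side. Of 7 microglia markers, 5 lay above 0 and 2 below. An unadjusted p under 0.05 was reached by 3 of them, all higher in the mice labelled knockout, against 1.91% of all tested genes on the higher side. The part of mural cells, oligodendrocytes and microglia in the differences between the labels, that of Cox4i2 among them, was not tested. Atp5g2 over Atp5g3 was higher by 0.07 log2 (exact permutation p = 0.0733, 0.293 adjusted over 8 pairs), and the differences of the other 6 pairs ran from -0.09 to 0.44 log2 with an adjusted p of 0.557 to 0.949.

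The minor isoforms were also set against marker lists over the 16 libraries, in 12 relations with permutation p-values from 100000 resamples. Cox6a2 ran from 3.15 through 3.99 to 5.66 CPM in the mice labelled knockout and from 3.42 through 4.86 to 6.22 CPM in those labelled wild type, with KO8 lowest and WT8 highest. It rose with the summed CPM of 8 interneuron markers, none at 0 in any library, Pvalb, Sst and Kcnc1 among them, with Pearson r = 0.75 (permutation p = 0.0010, 0.0126 adjusted over 12) and Spearman rho = 0.74 (permutation p = 0.0015, 0.0185 adjusted). The cholinergic and nitrergic markers of the list did not share the direction of Cox6a2 between the labels: Slc5a7 stood at 41.1 and 34.2 CPM, Nos1 at 21.6 and 18.6 and Chat at 16.1 and 14.5 in the mice labelled knockout and wild type, while Cox6a2 stood at 4.02 and 4.74. Without KO8 and WT8, the libraries farthest from the median of the markers, r was 0.56, and without KO1 and WT7 it was 0.82. The marker sum itself ran from 472 CPM in KO8 to 598 CPM in WT8, the libraries with the lowest and highest GC index, and Cox6a2 differed by 0.59 ± 0.22 log2 over the range of that index (SE, adjusted p = 0.099 in edgeR). The part of the index in this relation was not tested.

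With 8 striated muscle markers, Cox6a2 had r = 0.67 (permutation p = 0.0041, 0.0248 adjusted over 12) and rho = 0.61 (permutation p = 0.0138, 0.0616 adjusted), and without KO1 and KO8 r was 0.47. Without KO1 and WT7, r was 0.64 and no longer passed (permutation p, adjusted over 12, 0.0815). These markers summed to 12.6 to 17.8 CPM; the defining Ckm and Tnnt3 stood at no more than 0.269 and 0.265 CPM and at 0 in 1 and 2 libraries. Cox4i2 with the mural cell markers had r = 0.55 (permutation p = 0.0270, 0.0875 adjusted over 12) and rho = 0.60 (permutation p = 0.0154, 0.0616 adjusted), which did not pass after adjustment, and the remaining 9 relations did not pass either.

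Cox8b was highest in the libraries with the most choroid plexus transcripts. It had 40 reads in WT7 and 14 in KO1, against 2 to 9 in the other 14 libraries. Cox7a1 and Cox6b2 were also highest in WT7, at 1.55 and 1.87 CPM. Cox6b2 stood at 1.66 CPM in KO1, but at 1.79 CPM in WT8, where the choroid plexus markers summed to only 29.2 CPM. The part of choroid plexus in these values was not tested.

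No other gene of the pathway on the lists used here was called between the labelled genotypes. Of 43 assembly factors for the 5 complexes in the count files, 41 were tested, 0 were called and 0 had an unadjusted p under 0.05 in edgeR, and 26 lay below 0 with a median of -0.005 log2. The values closest to a difference were those of Timmdc1, a complex I assembly factor, at 20.8 ± 1.56 and 22.0 ± 1.26 CPM, and of Cox19, a factor of complex IV assembly, at 18.8 ± 0.895 and 18.0 ± 0.614 CPM (SD, n = 8 each). The 8 carriers and accessory subunits had 7 members below 0 and a median of -0.04, with Ndufab1, the mitochondrial acyl carrier protein, at 34.0 ± 2.49 and 36.1 ± 2.59 CPM and Cyc1, cytochrome c1, at 114 ± 8.07 and 118 ± 8.70 CPM. Of 16 regulators of mitochondrial biogenesis, 9 lay above 0 with a median of 0.003, and Ppargc1b, a coactivator of respiratory genes, stood at 12.2 ± 2.11 and 10.7 ± 1.06 CPM (unadjusted p = 0.067 in edgeR). Of 17 citric acid cycle genes, 10 lay below 0 with a median of -0.02.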

How the data were processed

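Poly(A) RNA of striatum was sequenced with a stranded TruSeq kit as single-end reads of 50 bases, per the labels' protocols. The authors deposited raw read counts per gene, as 64 tables, 1 for every lane of every mouse. FastQC 0.10.1, TopHat2 2.0.0 and HTSeq 0.6.1p1 are named in the submitters' processing notes, as are edgeR 2.14 and mm10 as the genome build. Neither the annotation used for counting nor its strand mode is given in the sources used here, so overlapping and antisense genes may share reads. The 5 summary rows stayed out of library sizes and tests; they held 18.0% to 19.8% of reads outside genes, 0.765% to 0.834% ambiguous reads and 21.1% to 22.9% reads with more than 1 alignment.

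Counts of the 4 lanes agreed within a mouse (chi-square per degree of freedom 1.00 to 1.03, against 6.20 to 37.2 between 56 pairs of mice) and were summed, so the mouse is the replicate. Nothing in the labels says whether mice were littermates. Genes were kept by filterByExpr (15446, with 99.96% of gene reads), scaled by TMM and compared with the two-sided quasi-likelihood test of edgeR 4.0.16 in R 4.3.3, with Benjamini-Hochberg adjustment over all tested genes. DESeq2 1.42.0, limma 3.58.1, other scalings, filters and covariates, single flow cells and left-out libraries were the alternatives. Limits from read numbers cover counting error only. Confidence intervals of fold changes come from the edgeR fit and also include the spread between mice. On simulated counts for 15363 genes this test recovered 34, 42, 50 and 49 of 50 genes changed 1.25-, 1.5-, 2- and 4-fold. All 84 members were matched by symbol to GENCODE M21 on GRCm38 and to RefSeq. The members and lists were chosen with earlier results of these data known. Named genes are core subunits, the highest and lowest per kilobase, the 3 smallest p-values of each complex, the paralog pairs, the 3 largest and 3 smallest spreads, and 2 genes of each other list. No marker list of a cell type had a called gene.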

Additional observations from a re-analysis of the deposited data

Results flagged for a closer look

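In 8 of 104 groups of 8 mice, the highest library stood far from the other 7, by a criterion that chance meets in about 1 in 20 groups. Of the mice labelled knockout, KO7 was high in Ndufs7 at 70.6 CPM (others 54.1 to 61.6) and in Atp5d at 175 CPM (others 139 to 148), and KO1 was high in Ndufa4l2 at 3.56 CPM (others 2.31 to 2.85). Of those labelled wild type, WT8 was high in Cox8a at 337 CPM (others 240 to 270) and in Cox6a1 at 305 CPM (others 207.8 to 246.4). WT8 and KO7 are the libraries with the highest GC index, 0.28 and 0.19, and over the range of that index Cox8a, Cox6a1 and Atp5d were higher by 0.55, 0.41 and 0.33 log2 in edgeR (adjusted p = 0.021, 0.042 and 0.012), while Ndufs7, higher by 0.26, did not pass (adjusted p = 0.098). The genes that set the index were part of that adjustment, which can lower the adjusted p-values. The index was also added after the values were seen. WT8 and KO7 hold both its highest values and these outliers, so the p-values are no separate evidence. The part of the index in these values was not tested. WT7 was high in Cox7a1 at 1.55 CPM (others 0.740 to 1.10) and in Cox8b at 1.44 CPM (others 0.104 to 0.213), and its log2 ratio of Cox8b to Cox8a was -7.51 (others -11.07 to -10.03). WT7 is the library with the most choroid plexus transcripts, 2376 CPM over 8 markers, whose part in these values was not tested.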

How the results depend on the processing

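No member was called in either direction under any of 29 alternatives. The count of members at an unadjusted p under 0.05, which was 1, became 2 with limma-voom with quality weights, 3 on flow cell 1 and 3 on flow cell 2, and ran from 0 to 6 when single libraries were left out. It was 0 without KO1, KO2, KO4, KO5 or WT8, 2 without WT1, WT4 or WT7, 4 without KO3 or WT3 and 6 without KO7. The replicate numbers do not pair the mice, since same-numbered mice correlated at r = -0.34 to 0.10, with 0 of 8 best matched to their own number. With the number as a block, the count was 1 and the median over members -0.02 log2. The median over members turned to 0.0233 with library number, which is not balanced over the labels, as a covariate. It was 0.00007 with limma-voom. The log2 fold change of Csnk1e turned from 0.0269 to -0.0181 with library number as a covariate, and that of Atp5f1 from -0.0341 to 0.0186. That of Sdhb turned from 0.00364 to -0.00362 with the sex of the library as a covariate and to -0.000668 on flow cell 2. When single libraries were left out, Sdhb ran from -0.0168 to 0.0285 and Csnk1e from -0.0400 to 0.109. The log2 difference in Cox6b2 over Cox6b1, -0.0135, turned to 0.125 on flow cell 2, to 0.00908 without KO1 and WT7, and ran from -0.0934 to 0.0890 when single libraries were left out. That of Cox7b2 over Cox7b, 0.212, turned to -0.125 on flow cell 2 and -0.0158 without KO1 and WT7, and that of Cox8b over Cox8a, 0.440, turned to -0.342 on flow cell 1. The r of Cox4i2 with interneuron markers, -0.0134, turned to 0.0422 on raw library sizes and 0.0532 without KO1 and WT7, and that of Cox7a1 with mural markers, 0.259, to -0.0566 without KO1 and WT7. The causes were not tested. Minor isoforms with 2 to 76 reads a library, Cox4i2 among them, are limited by depth.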
